A study of Saccharomyces cerevisiae with 16 samples.

Results

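The genes described here are 10 components of the DNA replication checkpoint of budding yeast (*Saccharomyces cerevisiae*): *MEC1*, *TEL1*, *RAD53*, *DUN1*, *CHK1*, *RAD9*, *MRC1*, *DDC1*, *RAD17* and *RAD24*. They were found by gene name among the 7126 genes of each expression table, and all 10 were listed and measured in every library. When a replication fork stalls, single-stranded DNA recruits the sensor kinase Mec1, while the related kinase Tel1 responds mainly to DNA ends. A ring-shaped clamp made of Ddc1, Rad17 and Mec3, loaded onto DNA by Rad24 together with the small replication factor C subunits, helps to activate Mec1. The mediators Mrc1 and Rad9 pass the signal on to the effector kinases Rad53 and Chk1, and Rad53 activates Dun1, a kinase that relieves inhibition of ribonucleotide reductase and raises the supply of deoxyribonucleotides.

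RNA-seq had been carried out on *lsm1∆* and WT cells of the BY4741 background grown in YPD, a rich medium. *LSM1* encodes a subunit of the Lsm1-7 complex, which promotes decapping and decay of mRNA in the cytoplasm and is found in P-bodies. The *lsm1∆* cells carried a deletion of this 1 gene, and both strains were sampled untreated and after 1, 2 and 4 h in 200 mM hydroxyurea (HU), an inhibitor of ribonucleotide reductase that stalls replication forks. Each of the 8 conditions had 2 replicates, giving 16 libraries. No library came from untreated cells at 1, 2 or 4 h, so HU and time in culture cannot be told apart in the HU ratios. The study also regards arrest of the cells in early S phase as a likely source of some of the changes in HU. The replicates are described as duplicates in one place of the study and as technical replicates in another, so p-values may measure only technical spread.

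Values were FPKM (fragments scaled to transcript length and to the mapped fragments of the library), so levels can be set side by side between genes. Ratios between strains still went with gene length (below), so an order of genes by level may carry a length effect. The median gene had 28.8 to 40.01 FPKM across libraries, and relative depth, judged from the widths of the deposited intervals, ran from 0.898 to 1.09 of the average library. *LSM1* was listed at 0 to 0.761 FPKM in the *lsm1∆* libraries and at 111 to 181 FPKM in the WT libraries. Of the 4 auxotrophic marker genes of BY4741, *MET17*, *LEU2* and *URA3* each had a listed value of 0 in every library, and *HIS3*, whose allele in this background is a partial deletion, was listed at 46.6 to 86.1 FPKM. The intervals of the 10 checkpoint genes had half-widths of 4.82% to 15.9% of the value, equivalent to 159 to 1721 fragments. Tests were made with limma on log2(FPKM + 1) over 6977 genes, and a gene was called changed at a Benjamini-Hochberg adjusted p under 0.05. Since the median log2 ratio of all genes was off 0 in several comparisons, each ratio was also computed after centring every library on its median gene.

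All 10 genes have an uninterrupted coding region and lie at the same position in the study's annotation and in the RefSeq annotation of the R64 genome (sacCer3). The upstream regions are shown first because the 4 genes with the highest HU ratios at 1 h in both strains share a short element there. The 500 bases before each start codon were searched for ACGCGT, the MluI cell cycle box that is bound by MBF, the G1/S transcription factor whose target genes are also activated by the replication checkpoint. This palindrome reads the same on both strands. It was present before 325 of 6000 genes (5.42%), and before 4 of the 10 checkpoint genes, *RAD53*, *DUN1*, *MRC1* and *RAD17*. *RAD53* and *MRC1* had 2 copies each, which 34 of the 6000 genes (0.567%) had. The copies lay 284 and 259 bases before the start codon of *RAD53*, 144 and 115 bases before that of *MRC1*, 163 bases before that of *DUN1* and 96 bases before that of *RAD17*, all outside the neighbouring gene. The related element CNCGAAA, searched on both strands, was present before 1320 genes (22%) and before *RAD53* alone of the 10. The stretches around the MluI boxes, on the coding strand from 5′ to 3′ and with the box in capitals, read as follows.
*RAD53* (chrXVI:264421-264501, minus strand): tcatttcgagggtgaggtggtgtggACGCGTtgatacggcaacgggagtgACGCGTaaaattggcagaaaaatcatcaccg
*DUN1* (chrIV:281981-282036, minus strand): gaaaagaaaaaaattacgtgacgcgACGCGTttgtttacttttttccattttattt
*MRC1* (chrIII:22191-22275, minus strand): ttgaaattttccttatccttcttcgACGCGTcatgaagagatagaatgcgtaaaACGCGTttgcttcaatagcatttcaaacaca
*RAD17* (chrXV:1026722-1026777, plus strand): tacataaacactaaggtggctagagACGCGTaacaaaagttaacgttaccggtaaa
A match is a description of the sequence, and binding of MBF was not measured.

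In untreated cells all 10 mRNAs were scarce, below the median gene of any library. The order of mean levels in untreated *lsm1∆* cells was *RAD17* (19.98 ± 0.606 FPKM, SD, n = 2), *DUN1*, *CHK1*, *RAD9*, *MRC1*, *DDC1*, *TEL1*, *RAD53*, *RAD24* and *MEC1* (7.97 ± 0.838 FPKM). In untreated WT cells it was *RAD9* (20.4 ± 0.0586 FPKM), *CHK1*, *DUN1*, *MRC1*, *RAD17*, *MEC1*, *TEL1*, *DDC1*, *RAD24* and *RAD53* (8.27 ± 0.758 FPKM). Most neighbours in these orders overlapped between replicates. In *lsm1∆* cells the libraries of neighbours were separate only between *RAD9* and *MRC1* and between *MRC1* and *DDC1*, and in WT cells only between *CHK1* and *DUN1*, *DUN1* and *MRC1*, *RAD17* and *MEC1*, and *TEL1* and *DDC1*. After 4 h of HU *DUN1* stood apart at the top, at 78.2 ± 2.88 FPKM in *lsm1∆* cells and 56.4 ± 2.16 FPKM in WT cells.

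**Figure D1:**
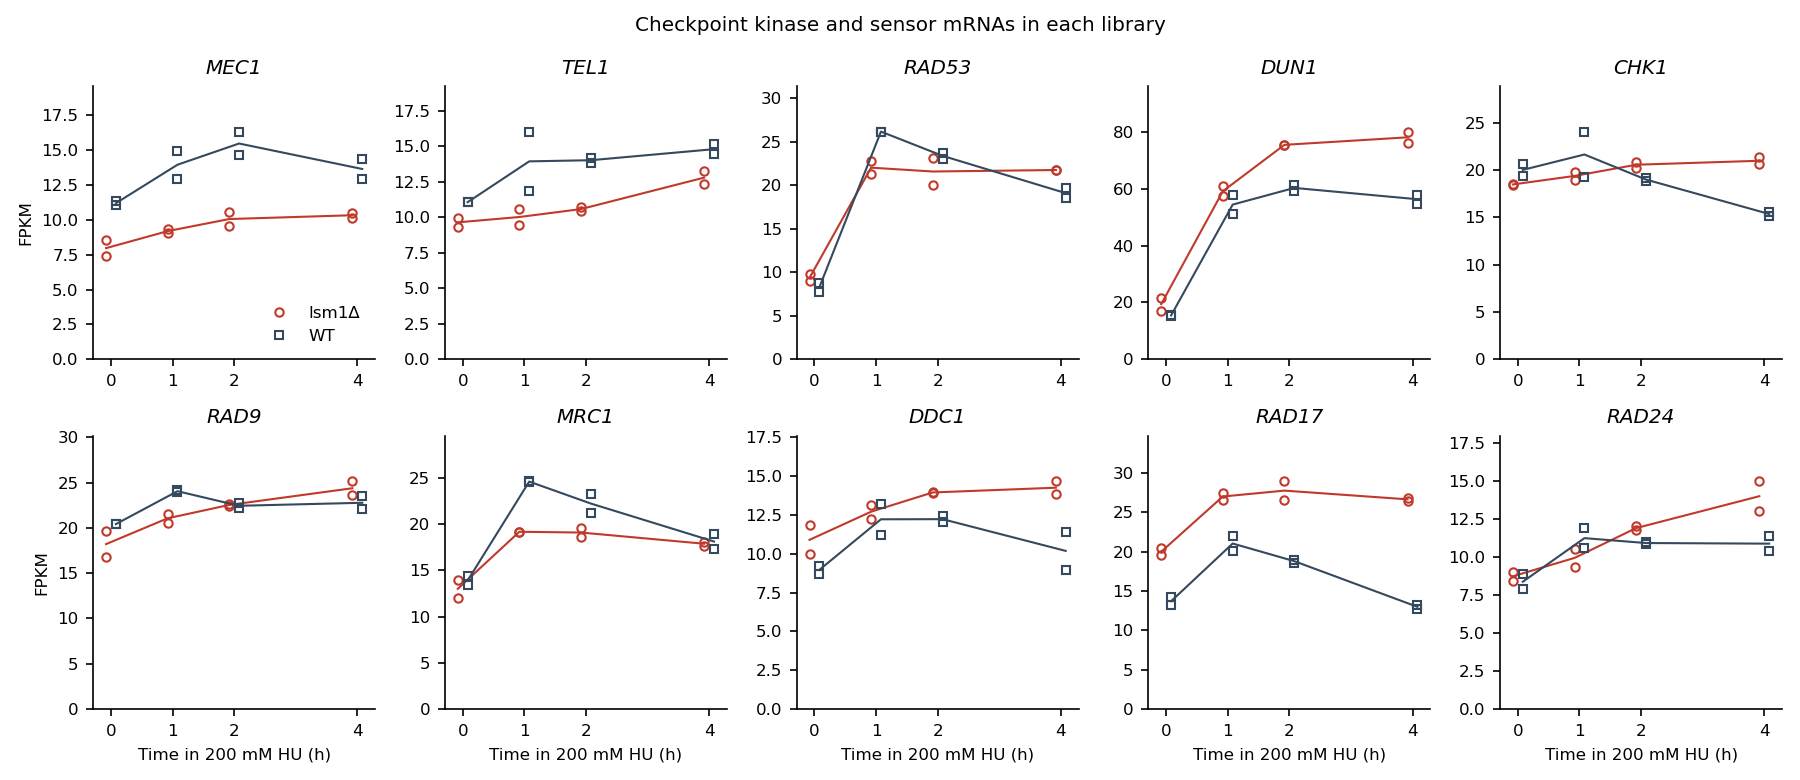
FPKM (y axis, from 0) of the 10 genes against time in 200 mM HU in hours (x axis), with circles for the *lsm1∆* libraries, squares for the WT libraries and lines through the means of 2 replicates. *DUN1* reached 80.2 FPKM and *RAD53* 26.2 FPKM, *RAD17* was higher in every *lsm1∆* library than in the WT libraries of the same time, and *MEC1* was lower.

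The largest responses to HU among the 10 genes were those of the effector kinases *DUN1* and *RAD53*. *DUN1* (YDL101C, chromosome IV, 280307 to 281848, minus strand) had 17.1 and 21.7 FPKM in untreated *lsm1∆* cells and 60.9 and 57.5, 75.6 and 75.5, and 76.1 and 80.2 FPKM after 1, 2 and 4 h. In WT cells it had 15.2 and 15.6 FPKM untreated and 57.9 and 51.1, 59.4 and 61.3, and 57.9 and 54.8 FPKM at the same times. Every treated library thus had at least 51.1 FPKM and every untreated one at most 21.7 FPKM. The log2 ratio of HU over untreated was 1.57, 1.92 and 1.96 in *lsm1∆* cells after 1, 2 and 4 h and 1.75, 1.9 and 1.80 in WT cells (standard error 0.10 each), a fold change of 2.96 to 3.90, with adjusted p between 3.14e-07 and 8.08e-06.

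*RAD53* (YPL153C, chromosome XVI, 261727 to 264192, minus strand), the central effector kinase, had 8.96 and 9.75 FPKM in untreated *lsm1∆* cells and 21.3 and 22.8, 20.04 and 23.1, and 21.8 and 21.7 FPKM after 1, 2 and 4 h. In WT cells it had 7.73 and 8.80 FPKM untreated and 26.2 and 26.2, 23.0 and 23.7, and 19.7 and 18.5 FPKM in HU. The treated and untreated libraries were widely separated in both strains. The log2 ratios were 1.15, 1.12 and 1.14 in *lsm1∆* cells and 1.55, 1.40 and 1.12 in WT cells (standard error 0.08 each), with adjusted p between 1.7e-06 and 1.52e-05. The rises of *DUN1* and *RAD53* remained called at all 3 times in both strains under every alternative tried, with adjusted p of at most 0.0366.

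*CHK1* (YBR274W, chromosome II, 749594 to 751177, plus strand), the effector kinase that acts mainly on the mitotic inhibitor Pds1, did not share this response. It had 18.5 and 18.5 FPKM in untreated *lsm1∆* cells and 19.8 and 18.9, 20.9 and 20.3, and 20.6 and 21.3 FPKM in HU, and none of its 3 ratios in this strain was called. In WT cells it had 19.4 and 20.6 FPKM untreated and 24.1 and 19.2, 18.8 and 19.2, and 15.6 and 15.1 FPKM in HU. Both 4 h WT libraries were below all other libraries of this gene, with a log2 ratio of −0.36 (standard error 0.09, adjusted p = 0.00684). Centred on the library median, *CHK1* was called lower in WT cells at 2 h (−0.26) as well as at 4 h (−0.34).

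Among the mediators, *MRC1* rose and *RAD9* moved little. *MRC1* (YCL061C, chromosome III, 18816 to 22106, minus strand), which travels with the fork, had 12.1 and 14.0 FPKM in untreated *lsm1∆* cells and 19.2 and 19.2, 18.6 and 19.6, and 18.1 and 17.7 FPKM in HU. In WT cells it had 13.5 and 14.4 FPKM untreated and 24.6 and 24.6, 23.3 and 21.2, and 17.3 and 19.0 FPKM in HU. Its log2 ratios were 0.53, 0.52 and 0.43 in *lsm1∆* cells and 0.78, 0.64 and 0.36 in WT cells, all called on the deposited scale. After centring on the library median the 4 h ratio in *lsm1∆* cells was 0.12 and no longer called (adjusted p = 0.262), and the other 5 remained called. Along gene length they were 0.41, 0.30 and 0.14 in *lsm1∆* cells and 0.49, 0.41 and 0.29 in WT cells, and again only the 4 h ratio in *lsm1∆* cells was not called. With only the libraries compared in the limma fit, the 1 h call in *lsm1∆* cells was lost (adjusted p at most 0.0604). *RAD9* (YDR217C, chromosome IV, 899551 to 903480, minus strand), the mediator of the DNA damage branch, ranged from 16.8 to 25.1 FPKM over all 16 libraries. Its ratios were 0.20, 0.30 and 0.41 in *lsm1∆* cells and 0.23, 0.13 and 0.15 in WT cells, of which 0.30 and 0.41 in *lsm1∆* cells and 0.23 in WT cells were called. The ratio of 0.30 lost its call without *lsm1∆* untreated replicate 1 (0.19), and that of 0.23 without any 1 of the 4 libraries compared (0.22 to 0.23). Centred on the library median the 6 ratios lay between −0.05 and 0.17, with none called.

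*RAD17* (YOR368W, chromosome XV, 1026843 to 1028048, plus strand), a subunit of the checkpoint clamp, had 19.6 and 20.4 FPKM in untreated *lsm1∆* cells and 27.5 and 26.5, 28.9 and 26.6, and 26.9 and 26.4 FPKM after 1, 2 and 4 h. In WT cells it had 14.2 and 13.2 FPKM untreated and 22.0 and 20.1, 18.6 and 19.0, and 13.2 and 12.7 FPKM in HU. It therefore rose in both strains at 1 h (log2 ratios of 0.42 in *lsm1∆* cells and 0.58 in WT cells), and in WT cells the 4 h libraries were no higher than the untreated ones (−0.07, adjusted p = 0.415). In *lsm1∆* cells the 4 h ratio was 0.40 (adjusted p = 5.8e-04), and 0.09 after centring (adjusted p = 0.308). The 1 h call in *lsm1∆* cells was lost with only the libraries compared in the limma fit (adjusted p at most 0.0584).

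*DDC1* and *RAD24* had lower mean FPKM than *RAD17* in each condition. *DDC1* (YPL194W, chromosome XVI, 179277 to 181115, plus strand), another clamp subunit, ranged from 9.95 to 14.7 FPKM in *lsm1∆* cells and from 8.71 to 13.2 FPKM in WT cells. *RAD24* (YER173W, chromosome V, 536300 to 538279, plus strand), the subunit specific to the clamp loader, ranged from 8.44 to 14.99 FPKM in *lsm1∆* cells and from 7.90 to 11.9 FPKM in WT cells. *RAD24* overlaps the gene YER172C-A over 356 bp, which was listed at 0 to 1.71 FPKM, and the libraries did not keep strand. The ratios of *RAD24* were 0.17, 0.41 and 0.62 in *lsm1∆* cells and 0.38, 0.35 and 0.34 in WT cells, of which all but the 1 h ratio in *lsm1∆* cells were called. After centring only the 4 h ratios were called (0.31 in *lsm1∆* cells and 0.37 in WT cells). On the deposited scale the WT calls were lost without WT untreated replicate 1 (0.31, 0.27 and 0.27 at 1, 2 and 4 h), 1 h replicate 1 (0.31), either 2 h library (0.36 and 0.34) or 4 h replicate 2 (0.28). The ratios of *DDC1* were 0.21, 0.33 and 0.36 in *lsm1∆* cells and 0.40, 0.41 and 0.16 in WT cells, and none was called after centring. On the deposited scale the calls at 2 and 4 h in *lsm1∆* cells were lost without *lsm1∆* untreated replicate 1 (0.22 and 0.25) or without either library of the HU time, and those at 1 and 2 h in WT cells without WT untreated replicate 1 (0.37 each) or 2 (0.44 each), 1 h replicate 1 (0.30) or either 2 h library (0.39 and 0.43).

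The sensor kinases had modest HU ratios. *MEC1* (YBR136W, chromosome II, 505668 to 512774, plus strand) had ratios of 0.19, 0.30 and 0.34 in *lsm1∆* cells and 0.29, 0.43 and 0.26 in WT cells after 1, 2 and 4 h. *TEL1* (YBL088C, chromosome II, 51019 to 59382, minus strand) had ratios of 0.05, 0.12 and 0.37 in *lsm1∆* cells and 0.29, 0.32 and 0.39 in WT cells. After centring on the median, only the 4 h ratios in WT cells were called, 0.29 for *MEC1* and 0.41 for *TEL1*, and none was with each library centred along gene length. On the deposited scale, each call of either gene was lost without at least 1 library. For *MEC1* these were WT untreated replicate 1 (0.31) or 2 (0.27) or 1 h replicate 1 (0.20) at 1 h, WT 2 h replicate 1 (0.36) at 2 h, and *lsm1∆* untreated replicate 1 (0.21 and 0.24), 2 h replicate 1 (0.24) or 4 h replicate 2 (0.32) in *lsm1∆* cells. For *TEL1* at 4 h they were any of the 4 libraries in WT cells (0.36 to 0.42) and *lsm1∆* untreated replicate 1 (0.33) or 4 h replicate 2 (0.32) in *lsm1∆* cells.

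Counted over the 10 genes on the deposited scale, 4, 8 and 9 were called higher in *lsm1∆* cells after 1, 2 and 4 h, where 25.0%, 38.6% and 43.6% of all genes tested were. In WT cells 8, 7 and 5 were called higher, where 36.0%, 31.1% and 22.0% of all genes were, and 1 (*CHK1*) was called lower at 4 h, where 26.0% of all genes were. After centring on the library median, 4, 4 and 3 were called higher in *lsm1∆* cells against a background of 13.9%, 18.9% and 23.1%, and 4, 4 and 6 in WT cells against 14.6%, 18.3% and 23.9%. On that scale *CHK1* was called lower in WT cells at 2 and 4 h, where 1431 and 1721 of the 6977 genes were. The 4 genes called higher on both scales at 1 and 2 h in both strains were *RAD53*, *DUN1*, *MRC1* and *RAD17*. For *MRC1* and *RAD17* the 1 h calls in *lsm1∆* cells were lost with only the libraries compared in the fit. The median log2 ratio of all genes was 0.14, 0.23 and 0.27 in *lsm1∆* cells and 0.22, 0.16 and −0.03 in WT cells. Several of the calls on the deposited scale were lost when 1 library was left out. Such a fit leaves 1 library in that group, so a call can be lost with little change in the ratio. *RAD9* in WT cells at 1 h had a ratio of 0.23, and of 0.22 to 0.23 without any 1 library. In WT cells at 1 h the count was 4 without untreated replicate 1 or without 1 h replicate 1, and 5 without untreated replicate 2, with *MEC1*, *RAD9*, *DDC1* and *RAD24* the genes that lost their call. Without 2 h replicate 1 it was 4 in WT cells at 2 h, and without untreated replicate 1 it was 5 in *lsm1∆* cells at 2 h.

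**Figure D2:**
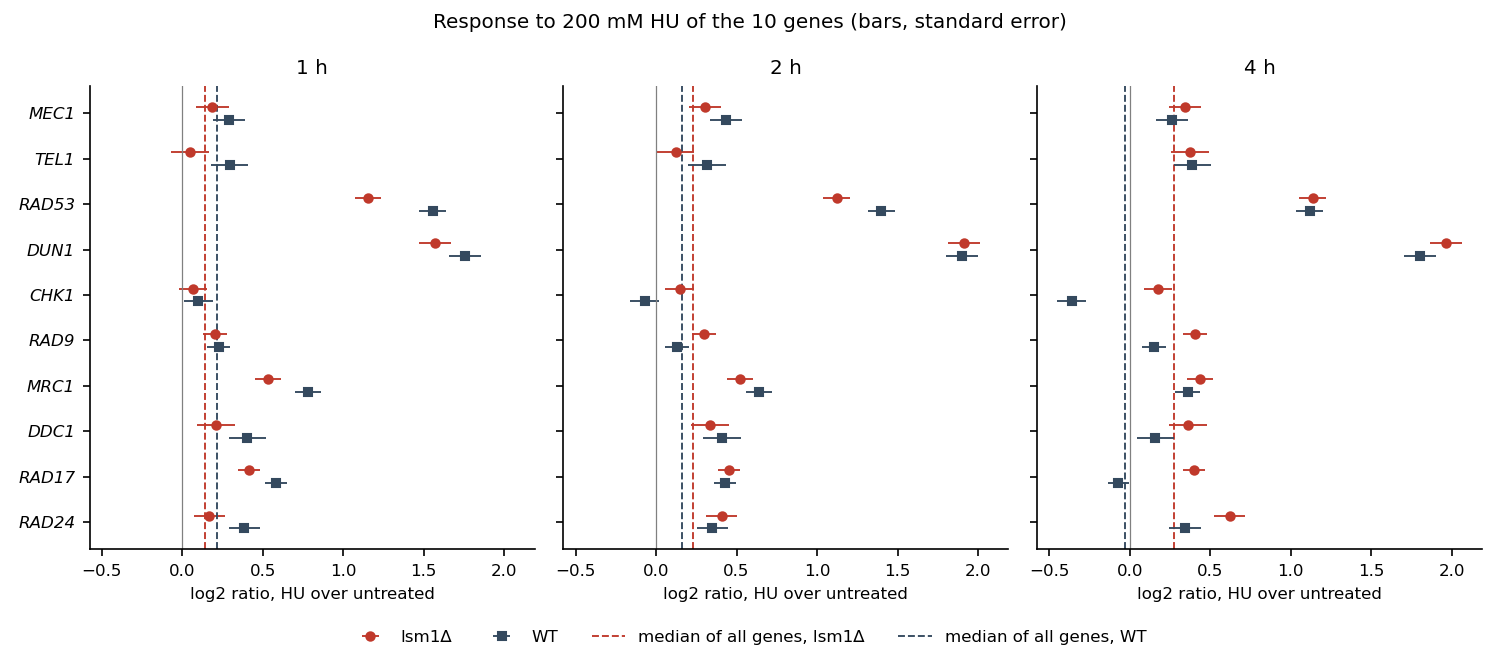
Log2 ratio of HU over untreated FPKM + 1 (x axis) for the 10 genes (y axis) after 1, 2 and 4 h, with circles for *lsm1∆* cells, squares for WT cells and bars for the standard error. The dashed lines mark the median of all genes in each strain, from −0.03 to 0.27, and *DUN1* and *RAD53* lie far to the right of them in all 3 panels.

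The 4 genes with an MluI box were the 4 that rose on both scales at the early times. After 1 h their log2 ratios lay between 0.42 and 1.57 in *lsm1∆* cells and between 0.58 and 1.75 in WT cells, and those of the 6 genes without the box lay between 0.05 and 0.21 in *lsm1∆* cells and between 0.10 and 0.40 in WT cells. The ranges did not overlap at 1 h. At 2 h they were 0.45 to 1.92 with the box and 0.12 to 0.41 without it in *lsm1∆* cells, and in WT cells they met, at 0.4298 to 1.9 with it and −0.07 to 0.4323 without it. At 4 h they overlapped in both strains, at 0.40 to 1.96 and 0.17 to 0.62 in *lsm1∆* cells and at −0.07 to 1.80 and −0.36 to 0.39 in WT cells. The upstream regions were shown because the 4 genes with the box had the highest ratios at 1 h. The lack of overlap at 1 h therefore follows from that choice and is no test of the box. Whether the box had a part in these rises was not tested. The values over all tested genes are given as a description and are no test of the box either. Of 322 tested genes with the box, 43.2% were called higher in *lsm1∆* cells at 1 h and 55.3% in WT cells, whereas of 5584 genes without it 27.1% and 39.5% were. The median ratios of genes with the box were 0.25 in *lsm1∆* cells and 0.34 in WT cells, against 0.14 and 0.23 for genes without it.

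Levels in HU were also compared between 1 h and 4 h, where the numbers called on the deposited scale were near the shares of all genes. From 1 h to 4 h of HU, 4 of the 10 genes fell in WT cells, where 38.1% of all genes were called lower and their median ratio was −0.24. These were *RAD17* (−0.65), *CHK1* (−0.46), *RAD53* (−0.44) and *MRC1* (−0.42), and after centring *RAD17* was the only one still called lower (−0.39, background 11.0%), while *TEL1* (0.36) and *DUN1* (0.32) were called higher (background 13.2%). Along gene length *RAD17* (−0.35) was called lower and *DUN1* (0.31) higher in WT cells, where 893 of the 6977 genes were called lower and 846 higher. On that scale *MRC1* alone (−0.27, lower) was called in *lsm1∆* cells, where 1086 were lower and 1002 higher. On the deposited scale 23.8% of all genes were called higher in *lsm1∆* cells over the same interval, with a median ratio of all genes of 0.12. There 2 of the 10 genes rose, *DUN1* (0.40) and *RAD24* (0.45), and neither was called after centring. Without 4 h replicate 2 of *lsm1∆* neither was called on the deposited scale (0.36 each), and without 1 h replicate 2 *DUN1* was not (0.35).

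Between strains, the ratio of a gene went with its length. The 10 genes run from 1206 bp (*RAD17*) to 8364 bp (*TEL1*), and *TEL1* and *MEC1* (7107 bp) are 2 of the 23 tested genes of at least 7000 bp. In untreated cells the median log2 ratio of *lsm1∆* over WT was 0.23 for 3422 genes under 1000 bp, 0.13 for 2236 genes from 1000 to 2000 bp, −0.02 for 802 genes from 2000 to 3000 bp and −0.12 for 293 genes from 3000 to 4000 bp. It was −0.31 for 201 genes from 4000 to 7000 bp and −0.43 for the 23 longest. The same order held after 1, 2 and 4 h of HU, where the medians were 0.25, 0.30 and 0.45 for the shortest class and −0.53, −0.53 and −0.37 for the longest. Of the 23 longest genes, 16, 19, 19 and 15 were called lower in *lsm1∆* cells at 0, 1, 2 and 4 h, which is 65.2% to 82.6% of them. The HU ratios within a strain varied less by class. At 1 h of HU their medians were 0.15 for the shortest class and 0.13 for the longest in *lsm1∆* cells, and 0.14 and 0.27 in WT cells. The WT medians of the class from 4000 to 7000 bp stood higher, at 0.34, 0.32 and 0.21 after 1, 2 and 4 h. Those of the shortest class were 0.14, 0.10 and −0.09. A fit in which each library was centred along gene length was therefore added after the data had been seen, and strain ratios are given on this scale as well. The cause of this trend was not tested.

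**Figure D3:**
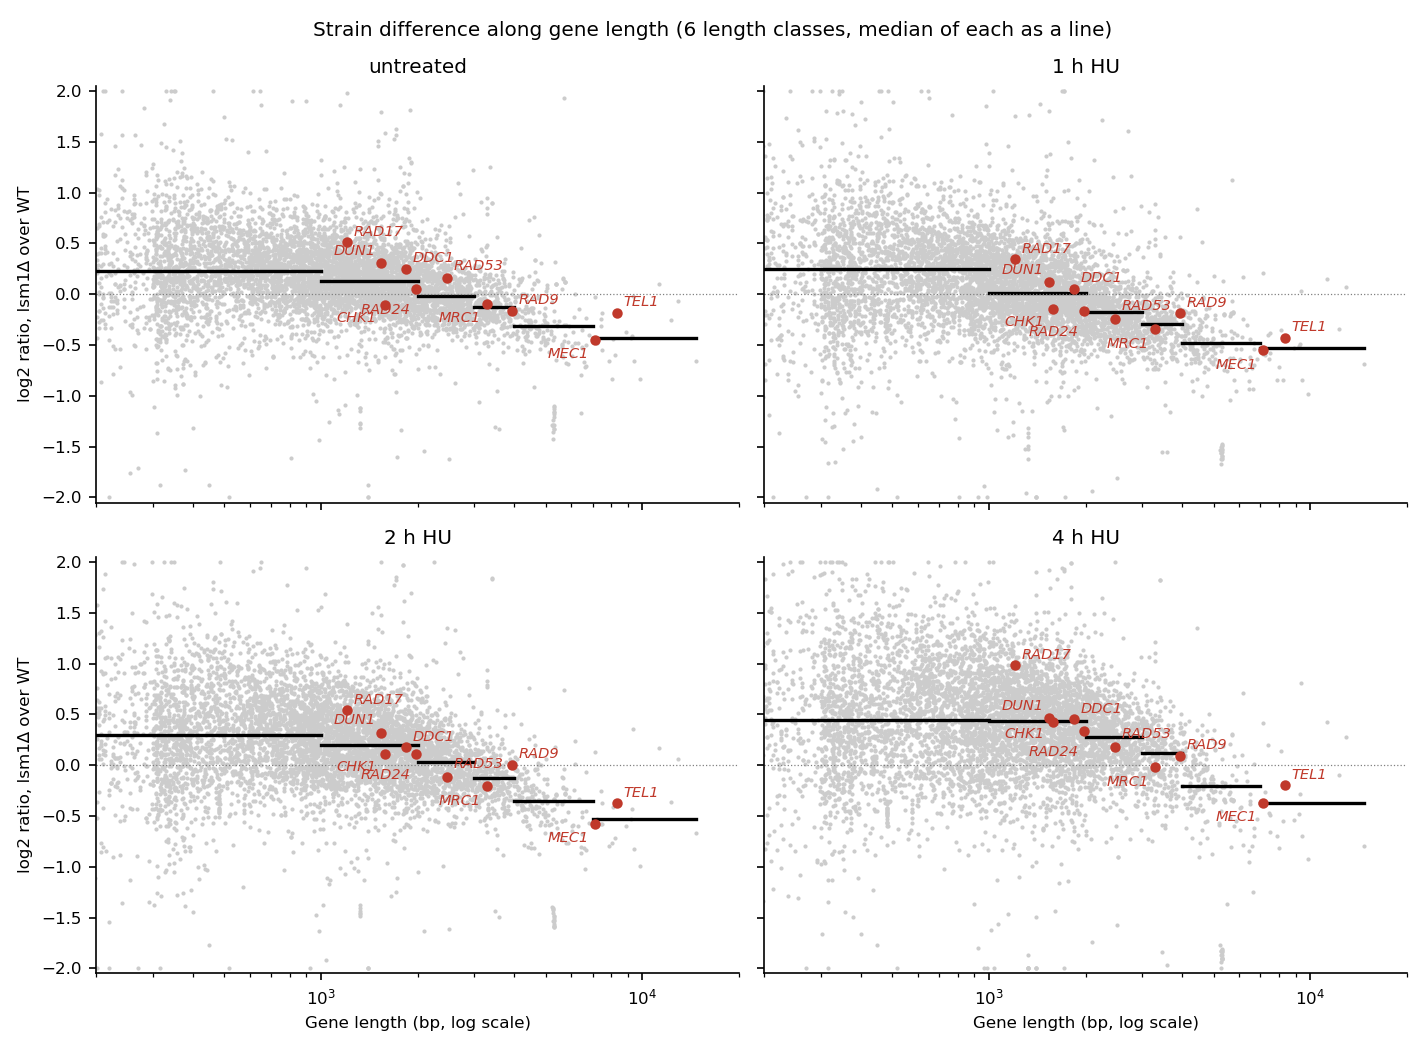
Log2 ratio of *lsm1∆* over WT (y axis, values beyond the axis drawn at its edge) against gene length in bp (x axis, log scale, from 200 bp) for all tested genes in grey, in untreated cells and after 1, 2 and 4 h of HU. Black lines are the medians of 6 length classes, which in untreated cells run from 0.23 to −0.43, and the 10 named genes are in red, with *MEC1* on the line of its class and *RAD17* above its own in all 4 panels.

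*MEC1* was lower in *lsm1∆* cells at every time, by about as much as other genes of its length. It had 7.38 and 8.56, 9.35 and 9.03, 10.6 and 9.55, and 10.2 and 10.5 FPKM in *lsm1∆* cells at 0, 1, 2 and 4 h, against 11.4 and 11.03, 14.9 and 13.0, 16.3 and 14.6, and 14.4 and 12.9 FPKM in WT cells. No *lsm1∆* library reached the lowest WT library of the series (11.03 FPKM). The log2 ratios were −0.45, −0.55, −0.57 and −0.37 (standard error 0.10 each, adjusted p = 0.00833, 0.00204, 0.00125 and 0.00965). Centred on the library median they were −0.53, −0.55, −0.75 and −0.79, all called. Centred along gene length they were −0.13, 0.02, −0.06 and −0.03, and none was called (adjusted p from 0.272 to 0.856). On the deposited scale the untreated call was also lost without *lsm1∆* untreated replicate 1 (adjusted p = 0.0629) and the 4 h call without 4 h replicate 1 of WT (0.0733) or of *lsm1∆* (0.0534).

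*TEL1* followed a like course at smaller size. It had 9.31 and 9.96, 10.6 and 9.42, 10.4 and 10.7, and 12.3 and 13.3 FPKM in *lsm1∆* cells at 0, 1, 2 and 4 h, against 11.03 and 11.1, 16.02 and 11.8, 14.2 and 13.8, and 15.1 and 14.4 FPKM in WT cells. Every *lsm1∆* library was below the WT libraries of its time. The ratios of −0.43 at 1 h and −0.38 at 2 h were called, and those of −0.18 untreated and −0.20 at 4 h were not. The 1 h call was lost without 1 h replicate 1 of WT (−0.22) or 1 h replicate 2 of *lsm1∆* (−0.35), and the 2 h call was lost without any 1 of the 4 libraries compared (−0.39 to −0.36). Centred on the library median the ratios at 1, 2 and 4 h were −0.43, −0.55 and −0.62, all called. Centred along gene length all 4 were positive, 0.18, 0.17, 0.185 and 0.20, and none was called.

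*RAD17* was higher in *lsm1∆* cells at every time on all 3 scales. The log2 ratio of *lsm1∆* over WT was 0.51, 0.35, 0.54 and 0.98 at 0, 1, 2 and 4 h (standard error 0.07 each, adjusted p = 5.6e-04, 0.00293, 1.69e-04 and 1.75e-06), which is 1.98-fold at 4 h. Centred on the library median it was 0.43, 0.34, 0.37 and 0.56, and centred along gene length 0.35, 0.27, 0.26 and 0.49, all called (the last with adjusted p = 2.27e-04). Leaving out any 1 library gave ratios of 0.46 to 0.57 untreated and 0.96 to 1.01 at 4 h. When the other libraries were left out of the fit, the untreated and 1 h calls were lost (adjusted p = 0.0525 and 0.107).

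The other members had strain ratios that depended on the scale. *DUN1* was called higher in *lsm1∆* cells untreated (0.30), at 2 h (0.32) and at 4 h (0.46), and on neither of the centred scales. Its untreated call was lost without WT untreated replicate 1 (0.29) or 2 (0.32) or *lsm1∆* untreated replicate 2 (0.14), and its 2 h call without any 1 of the 4 libraries compared (0.30 to 0.34). *CHK1* (0.43), *DDC1* (0.46) and *RAD24* (0.33) were called higher at 4 h, where the median of all genes was 0.37, and on neither centred scale. Without 4 h replicate 1 of WT, *DDC1* (0.30) and *RAD24* (0.28) were not called, nor was *RAD24* without 4 h replicate 2 of *lsm1∆* (0.24). *MRC1* was called lower at 1 h (−0.34), near the median of −0.29 for genes of 3000 to 4000 bp, and its ratio along gene length was −0.07. Centred on the median it was called lower at 1, 2 and 4 h (−0.35, −0.38 and −0.44). *RAD53* was called lower at 1 h (−0.24, adjusted p = 0.0466), a call lost without any 1 of the 4 libraries (−0.29 to −0.19), and centred on the median it was called lower at 2 h only (−0.28). *RAD9* was not called at any time on the deposited scale. Centred on the median it was called lower untreated (−0.25) and at 4 h (−0.33), and centred along gene length it was called higher at 1 h (0.18) and 2 h (0.23).

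On the deposited scale, 2, 1, 2 and 5 of the 10 genes were called higher in *lsm1∆* cells at 0, 1, 2 and 4 h, where 22.2%, 23.2%, 32.0% and 49.8% of all genes were. There were 1, 4, 2 and 1 called lower, where 6.32%, 13.8%, 7.75% and 6.29% of all genes were. Centred on the library median, 1 gene was called higher at each time (background 16.3%, 23.2%, 20.6% and 21.9%) and 2, 3, 4 and 4 lower (9.42%, 13.9%, 15.8% and 23.5%). Centred along gene length, 1, 2, 2 and 1 were called higher (11.8%, 15.6%, 16.8% and 22.0%). None was called lower along gene length, where 8.92%, 12.1%, 14.7% and 20.3% of all genes were. At an unadjusted p under 0.05 in limma, 1 ratio was lower on that scale, *CHK1* untreated (−0.21). On the deposited scale the number called in either direction was 3 and not 5 at 1 h without 1 h replicate 1 of WT or replicate 2 of *lsm1∆*, 2 and not 4 at 2 h without any 1 of the 4 libraries compared, and 3 and not 6 at 4 h without 4 h replicate 1 of WT.

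**Figure D4:**
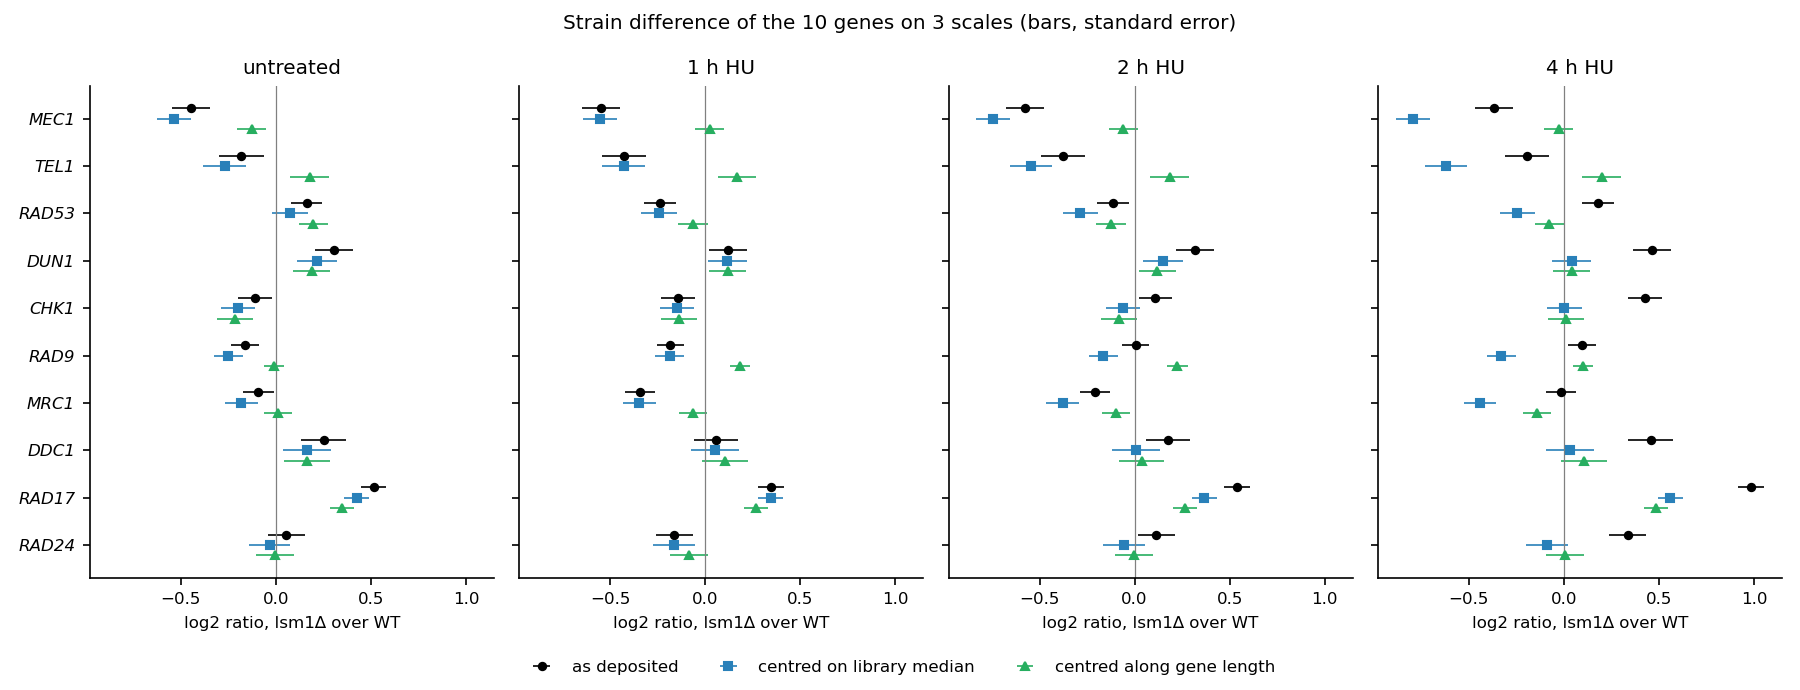
Log2 ratio of *lsm1∆* over WT (x axis) for the 10 genes (y axis) in untreated cells and after 1, 2 and 4 h of HU, as deposited (black circles), centred on the library median (blue squares) and centred along gene length (green triangles), with bars for the standard error. *RAD17* stays right of 0 on all 3 scales, and *MEC1* at 2 h lies at −0.57 as deposited and at −0.06 along gene length.

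Whether the HU response itself differed between strains was tested as an interaction. None of the 10 genes was called at 1 h or at 2 h, where 0.502% and 1.35% of all genes were called by limma. *RAD53* alone had an unadjusted p under 0.05 on the deposited scale at both times, with interactions of −0.40 (standard error 0.12, adjusted p = 0.145) and −0.28 (0.12, adjusted p = 0.27), in the direction of a smaller rise in *lsm1∆* cells. Along gene length *RAD9* also had an unadjusted p under 0.05, with positive interactions of 0.19 at 1 h and 0.24 at 2 h, and was not called. At 4 h *CHK1* (0.54, standard error 0.12, adjusted p = 0.0103) and *RAD17* (0.47, standard error 0.09, adjusted p = 0.00552) were called higher, where 26.9% of all genes were and the median interaction of all genes was 0.27. After centring on the library median these were 0.20 and 0.13 and not called. None of the 10 genes was called at 4 h on that scale, where 362 of the 6977 genes were called higher and 630 lower. Along gene length none was called either, where 481 were called higher and 524 lower. On each centred scale 1 of the 10 genes had an unadjusted p under 0.05.

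Over the 8 condition means, the genes whose course was most like that of a member were named for the 4 members that varied most. *MEC1* was most like *BPH1* (Pearson r = 0.9961), *TAO3* (0.9930) and *FMP27* (0.9821), which are 6504, 7131 and 7887 bp long. *RAD53* was most like *DPB2* (0.9867), a DNA polymerase epsilon subunit, *NTE1* (0.9862) and *SPT21* (0.9860), a regulator of histone genes. *DUN1* was most like *PRC1* (0.9965), the vacuolar carboxypeptidase Y, *PLM2* (0.9945) and YPR098C (0.9941). *RAD17* was most like *POL32* (0.9931), a DNA polymerase delta subunit, *RPN7* (0.9927), a proteasome subunit, and *BCH1* (0.9909). These are descriptions over 8 points that share their libraries, from a pool of 6198 genes.

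A list of 37 further genes of the pathway, all tested, gives the setting. In HU, 18, 22 and 23 of them were called higher in *lsm1∆* cells after 1, 2 and 4 h and 2, 1 and 1 lower, and 25, 21 and 16 were called higher in WT cells and 2, 3 and 6 lower. The shares of all genes called higher were 25.0%, 38.6% and 43.6% in *lsm1∆* cells and 36.0%, 31.1% and 22.0% in WT cells. Of all 6977 genes, 656, 707 and 1028 were called lower in *lsm1∆* cells and 583, 827 and 1811 in WT cells. After centring on the library median, 12, 13 and 12 were called higher and 4, 3 and 9 lower in *lsm1∆* cells (13.9%, 18.9% and 23.1% of all genes higher), and 13, 15 and 17 higher and 4, 5 and 5 lower in WT cells (14.6%, 18.3% and 23.9% higher). On that scale 1083, 1461 and 1921 of the 6977 genes were called lower in *lsm1∆* cells and 1230, 1431 and 1721 in WT cells. The largest rises were among outputs of Dun1 signalling. *HUG1*, a small inhibitor of ribonucleotide reductase, had log2 ratios of 3.94, 6.02 and 6.88 in *lsm1∆* cells and 5.89, 7.55 and 8.34 in WT cells. *RNR3*, the damage-inducible large subunit of that enzyme, had ratios of 4.58, 5.84 and 5.81 in *lsm1∆* cells and 4.48, 5.26 and 5.32 in WT cells.

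Between strains, *HUG1* was lower in *lsm1∆* cells at 1, 2 and 4 h (−1.18, −0.77 and −0.69) and *RNR3* was higher (0.85, 1.33 and 1.25), and both were called on all 3 scales. In untreated cells *HUG1* (0.76) and *RNR3* (0.76) were both called higher in *lsm1∆* cells on all 3 scales. *RNR2* and *RNR4*, the small subunits, were each called lower in *lsm1∆* cells at 1 h (−0.54 on the deposited scale) and at 4 h (−0.32). *RNR1*, also on the pathway list, went the other way. Its mean FPKM in *lsm1∆* and WT cells was 348.9 and 163.8 untreated, 1078 and 717.7 at 1 h and 922.5 and 494.8 at 2 h. At 4 h it was 549.9 and 455.8, and the replicates overlapped. *RFC2*, *RFC3* and *RFC5*, which join Rad24 in the clamp loader, were called higher in *lsm1∆* cells at all 4 times on all 3 scales, with ratios on the deposited scale from 0.38 to 0.97 for *RFC2*, from 0.58 to 0.96 for *RFC3* and from 0.67 to 0.87 for *RFC5*. *RFC4*, the other small subunit of the loader, was called higher on the deposited scale only, untreated (0.25) and at 4 h (0.33), and was called lower along gene length at 4 h. *MEC3*, the remaining clamp subunit, had ratios of −0.08, −0.06, 0.22 and 0.31, and only the 4 h ratio was called, on the deposited scale. *LCD1* (also known as *DDC2*), the partner subunit of Mec1, was called lower in *lsm1∆* cells untreated (−0.30) and at 1 h (−0.29, not called along gene length), with ratios of 0.01 at 2 h and 0.11 at 4 h that were not called. It was called lower at 4 h as well when centred on the library median (−0.31).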

How the data were processed

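The deposited tables held FPKM per gene with an interval of ± 2 SD. The authors had prepared rRNA-depleted total RNA, aligned 50 base reads with TopHat2 to sacCer3 and estimated FPKM with Cufflinks on an SGD annotation (versions not given in the sources used here). Genes with a failed estimate in any library (46 of 7126) were left out, and a minimum of 1 FPKM in 2 or more libraries left 6977 to test. A mean for each of the 8 conditions was fitted to log2(FPKM + 1) over all 16 libraries with limma 3.58.1 in R 4.3.3 (eBayes with trend, two-sided, Benjamini-Hochberg adjustment within each comparison, called under 0.05). The code was tested on simulated data. Fold changes are on the log2(FPKM + 1) scale, which understates changes of scarce mRNAs. FPKM give no read counts, so depth was judged from the intervals of 5904 genes, which cover counting error only. Alternatives were the scale of each library, the pseudocount, the filter, the libraries fitted, a replicate block and each library left out. The centring along gene length was chosen after seeing the data and took off, in each library, a lowess curve (span 0.1) of the deviation from the gene mean against log2 gene length. All 10 genes were described, the 37 pathway genes by counts, and the 3 most alike genes for members whose 8 condition means had an SD of at least 0.3 (pool of genes with at least 5 FPKM in every condition). Values for *HUG1*, *RNR1*, *RNR2*, *RNR3*, *RNR4*, *RFC2*, *RFC3*, *RFC4*, *RFC5*, *MEC3* and *LCD1* were named after they had been seen. Members and lists were chosen with earlier results of these data known. Promoter sequence was read from the RefSeq R64 genome, in which 6022 of the 6030 genes of the tables that it holds lie at the same position.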

Additional observations from a re-analysis of the deposited data

Results flagged for a closer look

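The difference between strains in the response to 4 h of HU passed the test for 2 of the 10 genes. *CHK1* had a log2 interaction of 0.54 by limma (adjusted p = 0.0103, standard error 0.12): its level at 4 h over untreated was 0.17 in *lsm1∆* cells and −0.36 in WT cells. *RAD17* had an interaction of 0.47 (standard error 0.09, adjusted p = 0.00552), with 0.40 in *lsm1∆* cells and −0.07 in WT cells. The median interaction of all genes was 0.27, 26.9% of genes were called in the same direction, and neither gene was called once each library had been centred on its median (0.20 and 0.13). On that centred scale 362 of the 6977 genes were called higher and 630 lower.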

How the results depend on the processing

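With 2 replicates a condition, the number of the 10 genes called moved by over 1.5 times under some settings. Centred on the library median it was 4 in WT cells at 1 h of HU, 4 and 3 in *lsm1∆* cells at 2 and 4 h, 0 for 4 h against 1 h in *lsm1∆* cells and 0 for the 4 h interaction. Centred along gene length it was 1, 2, 2 and 1 for *lsm1∆* against WT at 0, 1, 2 and 4 h, 4 in WT cells at 1 h, 4 and 3 in *lsm1∆* cells at 2 and 4 h, 2 in WT cells and 1 in *lsm1∆* cells for 4 h against 1 h, and 0 for the 4 h interaction. With only the libraries compared in the fit, the number of the 10 genes called was 0 between strains untreated and at 1 h. For HU it was 4 in WT cells at 1 h and 2 and 5 in *lsm1∆* cells at 1 and 2 h. For 4 h against 1 h it was 1 in each strain. The shares of all genes called are not given for this fit or for those that leave out 1 library. Their counts are therefore no result about the 10 genes. Leaving out 1 library at a time gave 2 to 3, 3 to 5, 2 to 2 and 3 to 6 between strains at 0, 1, 2 and 4 h, 4 to 9, 4 to 6 and 4 to 5 for HU in WT cells, 4 to 5, 5 to 8 and 6 to 9 for HU in *lsm1∆* cells, 4 to 5 and 0 to 2 for 4 h against 1 h in WT and *lsm1∆* cells, and 0, 0 and 2 to 3 for the interactions. Ratios called before or after a change of setting turned direction only under centring. On the library median these were *RAD9* (−0.33) and *RAD24* (−0.0898) between strains at 4 h and *RAD9* in WT cells at 1 h (−0.0184). Along gene length these were *TEL1* (0.17), *MEC1* (0.0228) and *RAD9* (0.18) between strains at 1 h, *TEL1* at 2 h (0.185), *MEC1* (−0.0641) and *RAD9* (−0.10) in WT cells at 1 h and *RAD9* in WT cells at 2 h (−0.15). Ratios called neither before nor after also changed sign, 29 on the library median, 33 along gene length and 38 when 1 library was left out. The cause was not tested. Of the 150 gene values, a pseudocount of 0.1 changed 1 call, no filter 1, and a mean of at least 5 FPKM in every condition 3. Replicate numbers did not pair the samples: over 28 pairs of conditions the correlation of same-numbered deviations ran from −0.207 to 0.229. With the replicate number as a block 2 calls changed, *MEC1* gained in WT cells at 4 h and *DUN1* lost between strains untreated.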
